A study of Homo sapiens with 16 samples.

Results

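The 9 genes described here encode growth factor receptors with a known place in neuroblastoma: ALK, NTRK2, NTRK3, NGFR, RET, KIT, ERBB2, ERBB3 and FGFR1. They were taken by name, as the 9 rows of the count table whose Ensembl identifiers map to these symbols, out of 58787 rows in all. RNA was profiled in IMR32, 1 human neuroblastoma cell line with MYCN amplification, which the labels call a neuroblast from brain. The cells received 1 of 3 siRNAs against TPX2 (si45, si46 or si47), a spindle protein that activates the mitotic kinase AURKA, or the non-targeting siRNA siNTC. Each of these 4 groups had 4 biological replicates, 16 libraries in all, and the column headers give 48 h.

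A receptor tyrosine kinase binds its ligand outside the cell, pairs with another receptor, and phosphorylates itself and adaptor proteins, which start the RAS-MAPK and PI3K-AKT cascades. In sympathetic neuroblasts such receptors guide survival, division and maturation: ALK is mutated or amplified in part of neuroblastomas, NTRK2 binds BDNF, NTRK3 binds NTF3, and RET binds ligands of the GDNF family through a GFRA co-receptor. KIT binds stem cell factor, ERBB2 and ERBB3 pair to read neuregulins, and FGFR1 reads fibroblast growth factors. NGFR (p75) is a neurotrophin receptor of the tumour necrosis factor receptor family and has no kinase domain, so the label tyrosine kinase does not hold for all 9 genes.

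The coding sequence of the catalytic loop shows which of these receptors carry the residue that a kinase needs. GENCODE transcripts (release 29, GRCh38) of 8 genes held the loop and those of 1, NGFR, did not. For FGFR1, 10 of 12 complete coding transcripts held it, but its bases and position are not reported here. In the 24 bases below, 5′ to 3′, the capitals mark the third of 8 codons, which encodes the catalytic aspartate in active kinases.
ALK: caccgaGACattgctgccagaaac
NTRK2: caccgcGATttggccaccaggaac
NTRK3: caccgaGACctggccaccaggaac
RET: catcggGACttggcagccagaaac
KIT: cacagaGACttggcagccagaaat
ERBB2: cacaggGACttggccgctcggaac
ERBB3: catagaAACctggctgcccgaaac
Counted from the first base of the loop with ERBB2 as the reference, ERBB3 has G7A in the marked codon. ERBB3 is known as a pseudokinase that signals through its partner. NTRK2 has C9T, which leaves the aspartate in place. The remaining 4 receptors shown carry the same 3 bases there as ERBB2. Loop positions were chr2:29209860-29213988 for ALK (minus strand, across the junction of exons 24 and 25), chr9:84955413-84955436 for NTRK2 (plus, exon 17) and chr15:87929272-87929295 for NTRK3 (minus, exon 15). The others were at chr10:43120087-43120110 for RET (plus, exon 15), chr4:54733076-54733099 for KIT (plus, exon 17), chr17:39725082-39725105 for ERBB2 (plus, exon 21) and chr12:56097818-56097841 for ERBB3 (plus, exon 21). Among complete coding transcripts, 4 of NTRK2 hold the loop and 4 do not, and for NTRK3 the numbers are 9 and 2. Counts per gene do not separate these kinase-bearing and truncated forms.

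A kit that reads only the 3′ end of each transcript (QuantSeq) was used, so levels of different genes are set side by side without a correction for transcript length. Other differences between genes in how their 3′ ends are captured and counted were not examined. Levels are CPM, the deposited counts scaled to library size, and the total count of a library was 5318159 at the least and 7864343 at the most. A filter on low counts left 14193 genes for edgeR, with 7 of the 9 receptors among them and without NTRK2 and ERBB3. TPX2 itself fell in all 3 groups, by 1.84 (si45), 2.0 (si46) and 2.20 (si47) on the log2 scale, and the mean over the siRNAs was 24.8% of the control level (edgeR, adjusted p = 1.13e-15). All 16 adrenergic neuroblast markers passed the filter, with summed levels of 6227 to 6615 CPM in siNTC libraries and 6538 to 7503 CPM in knockdown libraries. Of 14 mesenchymal neuroblastoma markers 8 passed, with sums of 483 to 537 CPM in siNTC and 489 to 625 CPM after knockdown. SOX10 (Schwann cells), TYR (melanocytes), AXL (mesenchymal cells) and CD3E, HBB and LYZ (blood) had 0 counts in every library. No haematopoietic or endothelial marker passed the filter.

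In control cells FGFR1 was the most abundant of the 9 receptors, at 61.9 ± 4.04 CPM (SD, n = 4), followed by ALK at 37.0 ± 4.53 CPM. FGFR1 exceeded ALK in all 4 siNTC libraries without overlap. NTRK3 stood at 23.5 ± 9.29 CPM, KIT at 19.5 ± 3.6 CPM and NGFR at 14.4 ± 1.79 CPM. The ranges of ALK and NTRK3, of NTRK3 and KIT, and of KIT and NGFR overlapped, so these neighbours were not separated beyond their spread. RET (3.30 ± 1.64 CPM) and ERBB2 (3.14 ± 1.2 CPM) formed a lower pair whose ranges overlapped, and NGFR, the next above them, was 4.38 times RET with no overlap. Among 58 receptor genes ranked by the siNTC mean, FGFR1 was number 4, ALK 7, NTRK3 12, KIT 15, NGFR 16, RET 28 and ERBB2 29. ERBB3 and NTRK2 came lower, in ties with other genes at or near 0 counts. DDR2, PTK7 and IGF1R were the 3 of these genes above FGFR1.

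**Figure D1:**
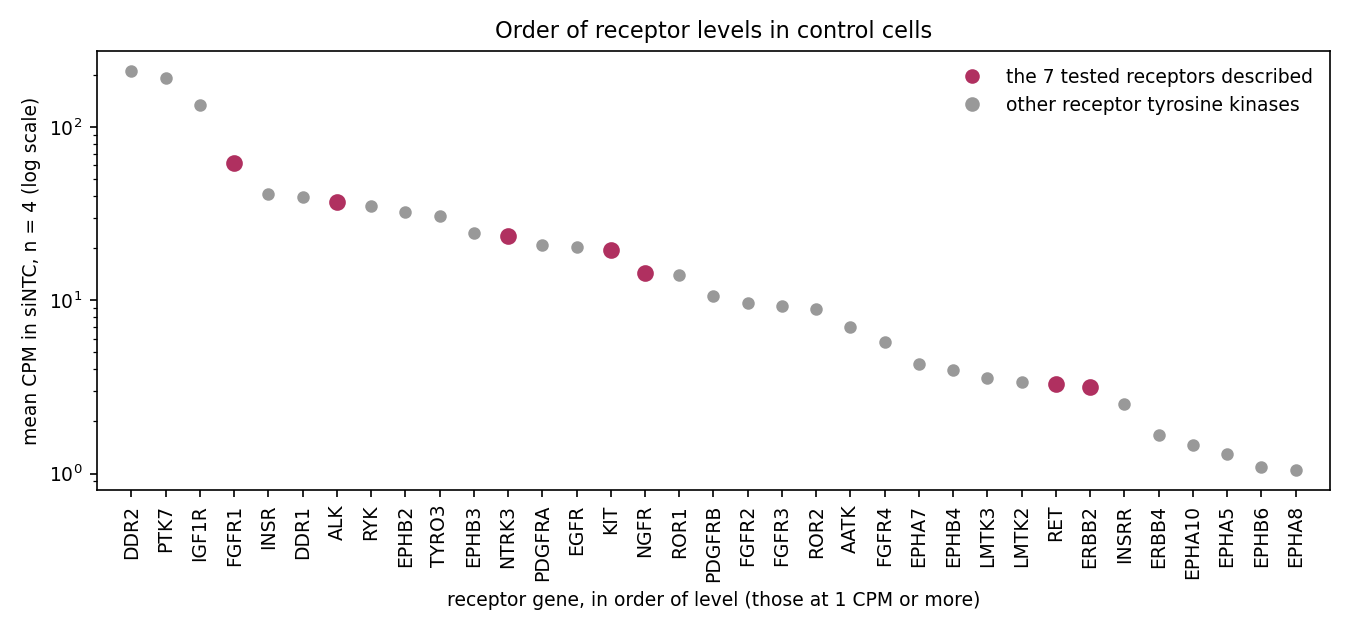
Mean level in siNTC (CPM, log scale, n = 4) of each ranked receptor gene at 1 CPM or more, in order of level. The 7 tested receptors described here are in red; FGFR1 and ALK stand near the top, and RET and ERBB2 lie side by side at about 3 CPM.

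NTRK2 and ERBB3 were at the edge of detection. NTRK2 had 0 counts in all 4 siNTC libraries, which allows up to 3 counts, or 0.469 to 0.567 CPM. It had 0, 1, 0 and 0 counts in si45, 5, 1, 0 and 1 in si46, and 0, 0, 0 and 1 in si47. ERBB3 had 1, 0, 0 and 0 counts in siNTC, 0, 1, 0 and 0 in si45, 9, 1, 4 and 2 in si46, and 1, 0, 5 and 0 in si47. Neither was tested, and at this depth no fold change can be given for them. These limits, and those below, cover counting error only.

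NGFR and KIT fell after TPX2 knockdown, and none of the 7 tested receptors rose. With the siRNAs averaged and set against siNTC (the mean contrast), 2 of 7 were called lower and 0 higher at an adjusted p under 0.05, where 7.14% of all tested genes were called in either direction and 3.53% lower. The log2 change was negative for 6 of 7, against 50.2% of all genes, and its median was -0.24. At an unadjusted p under 0.05 the count was 4, all lower, against 10.3% of all genes. By siRNA, edgeR called 0 of 7 receptors for si45 (background 1.34%), as DESeq2 and limma-voom did, 1 for si46 (3.4%) and 2 for si47 (9.74%). The si45 count was 3 without adjustment, all lower, against 5.45% of all genes. With the replicate number added to the model, 2 receptors (FGFR1 and NGFR) were called for si45, where 577 of 14193 genes were. The same 2 were called without replicate 3 of all groups, where 379 of 14343 genes were. The 3 comparisons share the siNTC libraries, so they are not independent of each other. In bulk RNA, fewer cells that express a receptor and less of its RNA per cell cannot be told apart.

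**Figure D2:**
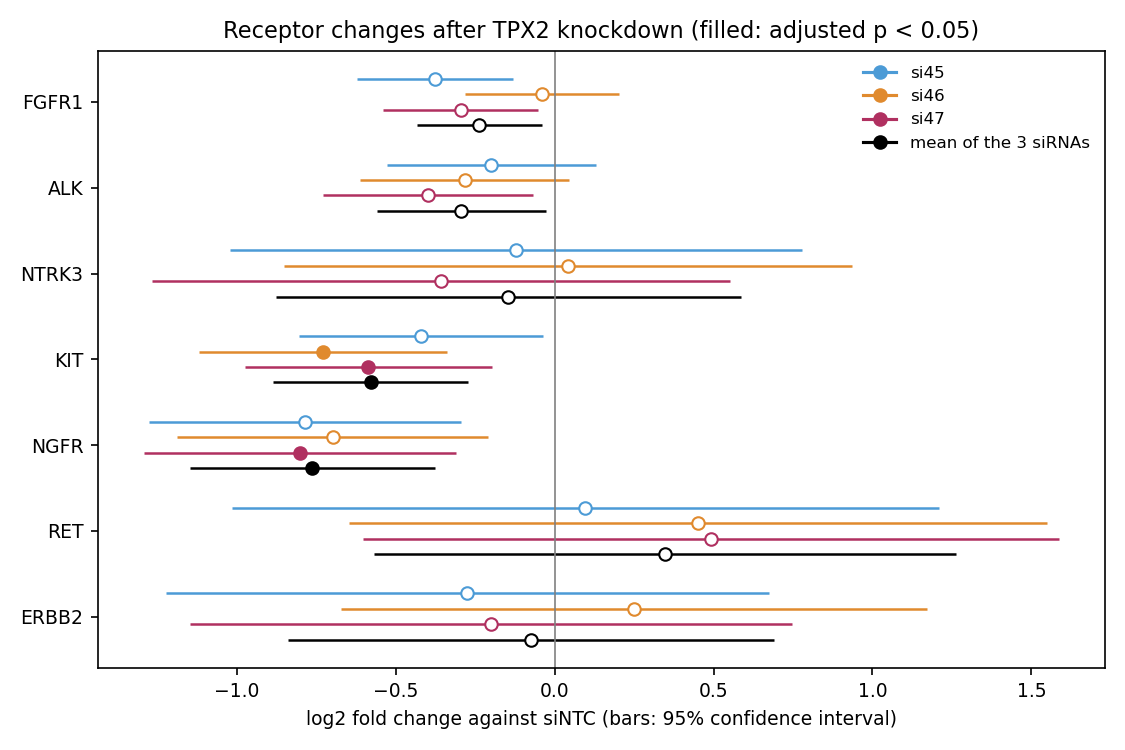
Log2 fold change against siNTC with its 95% confidence interval for the 7 tested receptors, by siRNA (colours) and for the mean of the 3 siRNAs (black); filled points passed an adjusted p of 0.05. NGFR and KIT lie left of 0 throughout, and the intervals of NTRK3, RET and ERBB2 are the widest.

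NGFR (ENSG00000064300, chromosome 17, 49495293 to 49515017, plus strand) can act as a co-receptor that sharpens neurotrophin binding, or signal alone. It measured 12.2, 16.4, 14.0 and 15.1 CPM in the siNTC libraries. Under si45 it measured 7.30, 7.34, 11.1 and 7.76 CPM, under si46 7.60, 11.1, 5.89 and 11.2 CPM, and under si47 5.66, 9.80, 6.72 and 11 CPM. All 12 knockdown libraries were below all 4 controls, a separation that 1.03% of all tested genes showed in this direction. The mean change was -0.76 on the log2 scale (SE 0.190, 95% interval -1.15 to -0.38; edgeR, adjusted p = 0.00978), or 41.0% lower. The siRNAs gave close values, -0.79 for si45 (adjusted p = 0.111), -0.70 for si46 (0.113) and -0.80 for si47 (0.0292) with edgeR, and si47 alone passed. The mean call was lost without siNTC replicate 2, the highest control (-0.69, edgeR adjusted p = 0.0583). Without si45 replicate 3, the highest si45 library, the si45 change passed (-0.95, adjusted p = 0.0368). The si47 call was lost without siNTC replicate 2, 3 or 4 or si47 replicate 1 or 3 (adjusted p up to 0.130), and without replicate 3 of all groups (0.0725). NGFR is also a marker of Schwann cells. The other 8 markers of that list summed to 18.3 to 24.7 CPM in siNTC. The same sum was 16.6 to 24 CPM with si45, 15.8 to 24.6 CPM with si46 and 13.7 to 18 CPM with si47. SOX10, the defining factor of that lineage, was at 0 throughout.

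KIT (ENSG00000157404, chromosome 4, 54657918 to 54740715, plus strand), the stem cell factor receptor, measured 21.6, 22.4, 19.7 and 14.4 CPM in siNTC. It measured 14.3, 12.7, 15.4 and 16.1 CPM under si45, 12.7, 9.64, 14.8 and 9.87 CPM under si46, and 14.6, 10.9, 15.0 and 11.5 CPM under si47. Here the groups overlapped: siNTC replicate 4 lay within the range of the knockdown libraries, and 7 of 12 of these were below all controls. The mean change was -0.58 (SE 0.151, 95% interval -0.89 to -0.27; edgeR, adjusted p = 0.0141), or 33.0% lower. By siRNA it was -0.42 for si45 (adjusted p = 0.374), -0.73 for si46 (0.0259) and -0.59 for si47 (0.0452) with edgeR. The mean call was lost without siNTC replicate 1 (-0.53, adjusted p = 0.0753) or siNTC replicate 2 (-0.50, adjusted p = 0.0874). The si46 call was lost without siNTC replicate 1, 2 or 3 or si46 replicate 2 or 4 (adjusted p up to 0.109). The si47 call was lost without any of 9 single libraries, namely siNTC replicates 1 to 3, si47 replicates 1, 2 and 4, si45 replicates 1 and 4, and si46 replicate 1 (adjusted p up to 0.139). KIT also marks melanocytes and blood progenitors. The 6 melanocyte markers, with TYR at 0, summed to 25.3 to 31.8 CPM in siNTC. Their sum was 23.1 to 31.2 CPM with si45, 34.7 to 55.2 CPM with si46 and 29.4 to 39.1 CPM with si47. Of these markers PMEL and MITF were the 2 tested, and the part of such cells in the KIT change was not tested.

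**Figure D3:**
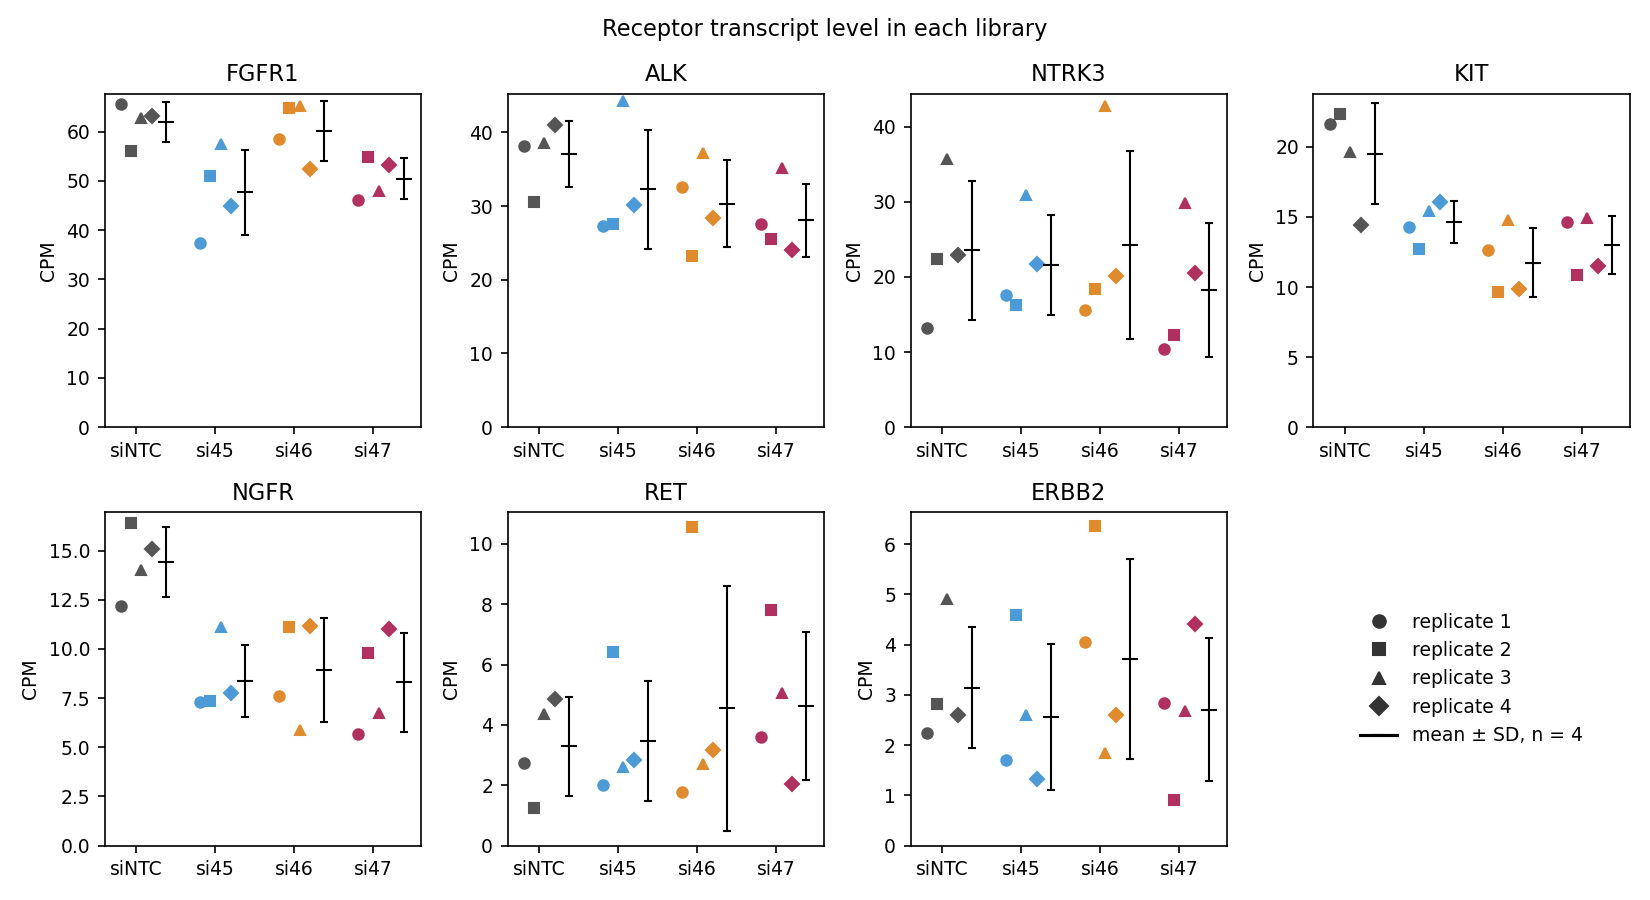
Level of each tested receptor in every library (CPM, linear axes from 0) by group; symbols give the replicate number, and bars the mean ± SD of 4. All 12 NGFR knockdown points sit below the 4 controls, KIT overlaps its controls through siNTC replicate 4, and RET and ERBB2 scatter at a few CPM.

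ALK and FGFR1 had lower means in every knockdown group. Neither passed the adjusted threshold in any contrast with siNTC when all 16 libraries were fitted by group means alone. With the replicate number added to the model, ALK passed for si47 and in the mean contrast, and FGFR1 for si45. Calls over all genes rose with that model too. ALK (ENSG00000171094, chromosome 2, 29192774 to 29921566, minus strand) measured 38.2, 30.5, 38.6 and 40.9 CPM in siNTC. Its knockdown values were 27.3, 27.5, 44.2 and 30.1 CPM for si45, 32.5, 23.3, 37.2 and 28.3 CPM for si46, and 27.5, 25.6, 35.1 and 24 CPM for si47. The groups overlapped, with 8 of 12 knockdown libraries below all controls, and si45 replicate 3 was the highest of all 16. The mean change was -0.29 (SE 0.130, 95% interval -0.56 to -0.03; edgeR, adjusted p = 0.186). For si47 it was -0.40 (edgeR, adjusted p = 0.124), which passed without si47 replicate 3 (-0.53, adjusted p = 0.0406).

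FGFR1 (ENSG00000077782, chromosome 8, 38400215 to 38468834, minus strand) measured 65.6, 56.2, 62.8 and 63.1 CPM in siNTC. It measured 37.4, 50.9, 57.6 and 44.8 CPM under si45, 58.5, 64.7, 65.3 and 52.3 CPM under si46, and 46.1, 54.8, 47.9 and 53.2 CPM under si47. All 4 si47 libraries were below all controls (6.98% of all genes showed this), while 3 of 4 si46 libraries lay within the control range. The change was -0.38 for si45 (SE 0.121; edgeR, adjusted p = 0.137), -0.04 for si46 (SE 0.119; 0.925) and -0.30 for si47 (SE 0.120; 0.121). Without si45 replicate 3 the si45 change passed (-0.48, edgeR adjusted p = 0.0245). FGFR1 gave the smallest unadjusted p of any receptor between 2 siRNAs, 0.34 higher with si46 than with si45 (SE 0.120, 95% interval 0.09 to 0.58; edgeR, unadjusted p = 0.00829, adjusted p = 1).

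For NTRK3, RET and ERBB2 the spread between replicates was as large as any change, and none passed a test. NTRK3 (ENSG00000140538, chromosome 15, 87859751 to 88256768, minus strand) measured 13.1, 22.4, 35.7 and 22.9 CPM in siNTC. It measured 17.5, 16.2, 30.9 and 21.8 CPM under si45, 15.6, 18.4, 42.8 and 20.1 CPM under si46, and 10.4, 12.3, 29.9 and 20.5 CPM under si47. The ranges of all 4 groups overlapped, and the mean change was -0.15 (95% interval -0.88 to 0.58; edgeR, adjusted p = 0.863). RET (ENSG00000165731, chromosome 10, 43077027 to 43130351, plus strand) measured 2.73, 1.25, 4.35 and 4.86 CPM in siNTC. It measured 2.02, 6.42, 2.60 and 2.84 CPM under si45, 1.77, 10.5, 2.69 and 3.17 CPM under si46, and 3.61, 7.80, 5.04 and 2.03 CPM under si47. RET was the 1 tested receptor with a positive mean change, 0.35 (95% interval -0.57 to 1.26; edgeR, adjusted p = 0.722), and its highest library in each knockdown group was replicate 2. ERBB2 (ENSG00000141736, chromosome 17, 39687914 to 39730426, plus strand) ranged from 2.24 to 4.92 CPM in siNTC and from 0.907 to 6.37 CPM in the knockdown libraries. Its mean change was -0.07 (95% interval -0.84 to 0.69; edgeR, adjusted p = 0.942). The intervals of NTRK3 and ERBB2 include a fall of the size measured for KIT, and that of RET ends just above it. Overlaps with other genes were sought over whole gene spans, and whether exons overlap was not examined. Reads of PGAP3 and MIEN1, which overlap ERBB2 on the opposite strand, may be mixed with its own unless strand was used in counting. The same holds for LETM2 at FGFR1, NTRK3-AS1 at NTRK3, AC106870.1 and AC106870.2 at ALK, and AC015656.1 and AC006487.1 at NGFR. On the same strand, where strand would not help, NGFR overlaps MIR6165, ALK RN7SL516P, ERBB2 MIR4728, NTRK3 MED28P6, FGFR1 AC087623.3 and RPS20P22, and ERBB3 the protein-coding AC034102.2. NTRK2, RET and KIT overlap no other annotated gene.

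The siRNAs did not separate from each other on any receptor. In the 3 pairwise contrasts 0 of 7 receptors were called by edgeR, where 0.0282% (si46 with si45), 0.169% (si47 with si45) and 0.0493% (si47 with si46) of all genes were. DESeq2 and limma-voom also called 0. At an unadjusted p under 0.05 there were 1, 0 and 1 (backgrounds 4.1%, 10.4% and 7.29%), both times FGFR1 (si47 with si46, -0.26, 95% interval -0.50 to -0.01). For NGFR the difference was 0.09 between si46 and si45 (95% interval -0.42 to 0.59) and -0.01 between si47 and si45 (-0.52 to 0.49). For KIT it was -0.31 (-0.70 to 0.09) and -0.17 (-0.56 to 0.23). These intervals do not show that the siRNAs act alike.

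Replicates with the same number tended to stand at the same place for some receptors. NTRK3 was highest in replicate 3 in 4 of 4 groups, averaging 34.8 CPM there against 14.2, 17.3 and 21.3 CPM in replicates 1, 2 and 4. ALK was highest in replicate 3 in 3 of 4 groups and RET in replicate 2 in 3 of 4, while siNTC replicate 2 was the lowest RET control. The labels do not say what a replicate number stands for. With replicate 3 of all groups left out, an alternative chosen after these values were seen, NTRK3 changed by -0.12 under si46 where it had changed by 0.04. ALK then passed the threshold in the mean contrast (-0.42, edgeR adjusted p = 0.0377).

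**Figure D4:**
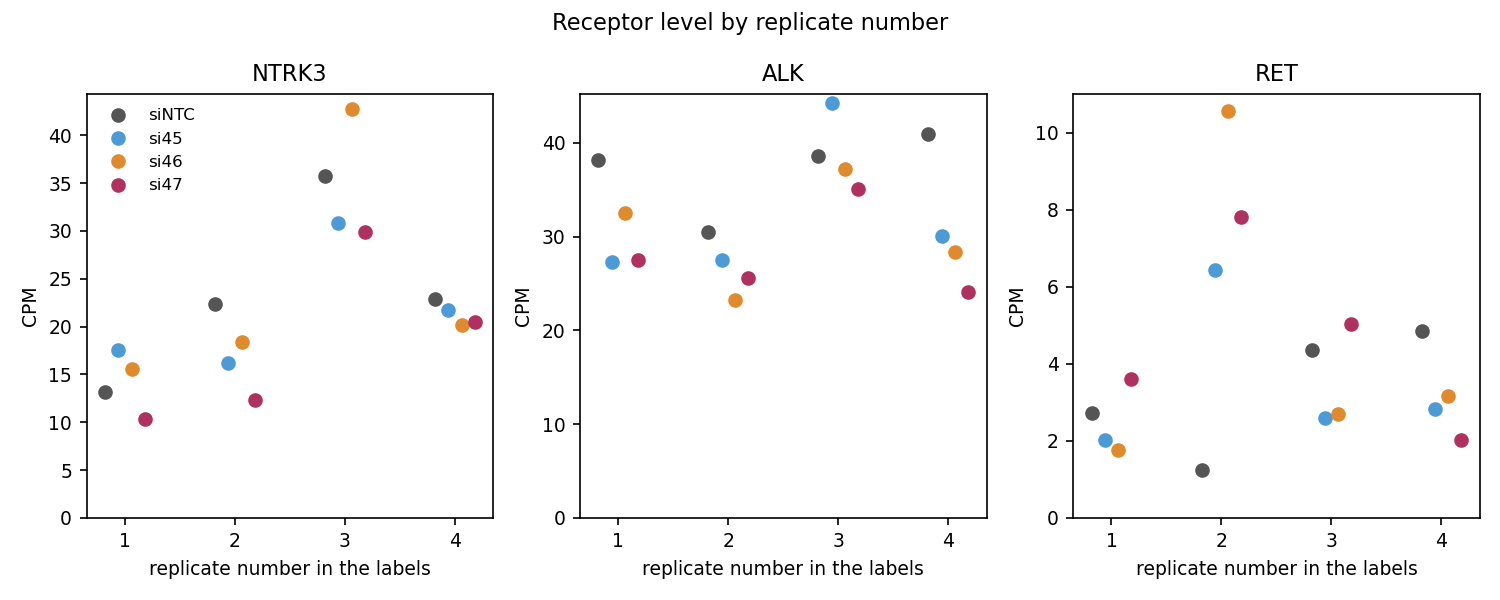
NTRK3, ALK and RET (CPM) by replicate number in the labels, 1 point per library, coloured by group. NTRK3 is highest in replicate 3 of every group, and RET in replicate 2 of the 3 knockdown groups.

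Pairs of receptors varied together to different degrees over the 16 libraries, which share group differences and depth. The highest Pearson r of log2 CPM were 0.60 for ALK with KIT and 0.55 for ALK with NTRK3, and the latter was 0.54 after group means were removed. NGFR and KIT, both lower after knockdown, had r = 0.26 over all libraries and -0.61 within groups. The genes whose levels were most like NGFR, among 11774 with a mean count of at least 20, were TCF7L2 (r = 0.85), DNMT1 (r = 0.83) and TMEM65 (r = 0.81). For KIT they were IGFBP5 (r = 0.87), PDE2A (r = 0.84) and HTR3A (r = 0.84). TPX2 itself had r = 0.72 with NGFR and 0.75 with KIT.

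The other receptor tyrosine kinases showed no call by edgeR in the mean contrast. Of 49 listed, 26 were tested, and 0 were called higher or lower (7 at an unadjusted p under 0.05, against 20.4% of all genes, with a list median of -0.13). DDR1 and FGFR2 were named after their values were seen. Under si47, the collagen receptor DDR1 rose by 0.47 (edgeR, adjusted p = 0.0106) and FGFR2 fell by 0.94 (adjusted p = 0.0337).

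Among the listed ligands of these receptors and their families 3 rose and 2 fell. The list also takes in relatives in the EGF and FGF families, with HBEGF and FGF13 among those tested. Of 33 listed, 12 were tested (25% higher and 16.7% lower, against 3.61% and 3.53% of all genes). GDF15, a stress-induced cytokine that signals through GFRAL and RET, ranged from 2.66 to 5.3 CPM in siNTC and from 10.6 to 75.8 CPM, median 24.7, after knockdown, with no overlap. Its mean change was 2.75 (SE 0.485; edgeR, adjusted p = 0.00392), and its co-receptor GFRAL had 0 counts in every library. NRG1, the neuregulin that binds ERBB3 and ERBB4, went from 5.77 to 7.19 CPM in siNTC to 6.40 to 17.6 CPM, with 11 of 12 knockdown libraries above all controls (0.95, SE 0.220; edgeR, adjusted p = 0.00503). Of its receptors, ERBB3 was at the counts given above and ERBB4 averaged 1.67 CPM in siNTC.

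In the mean contrast KITLG, stem cell factor, rose while its receptor KIT fell. From 1.71 ± 1.37 CPM in the controls it went to 4.69 ± 1.93 CPM with si45, 2.78 ± 0.956 CPM with si46 and 5.68 ± 1.38 CPM with si47 (SD, n = 4), and 8 of 12 knockdown libraries exceeded all controls. The mean change was 1.28 (SE 0.395, edgeR adjusted p = 0.0424). By siRNA it was 1.43 for si45 (adjusted p = 0.133), 0.68 for si46 (0.553) and 1.71 for si47 (0.0112) with edgeR. By point estimate KIT fell most with si46, where KITLG rose least, but neither gene passed the adjusted threshold between any siRNAs. A link between these changes was not tested. KITLG was named after its values were seen, and its call was lost without any of 7 single libraries (siNTC replicates 1, 2 and 3, si45 replicates 2 and 4, si46 replicate 2, si47 replicate 1), with adjusted p up to 0.165. PTN, a heparin-binding growth factor put forward as an ALK ligand, went from 55.3 ± 6.01 CPM in siNTC (SD, n = 4) to 43.6 CPM with si45, 47.6 CPM with si46 and 40.0 CPM with si47. That is a drop of -0.34 (SE 0.105; edgeR, adjusted p = 0.0402). Its relative MDK, also named after its values were seen, fell by 0.22 (adjusted p = 0.0413). Without 9 single libraries PTN, and without 11 MDK, no longer passed. These were each siNTC library and si45 replicate 1, si45 replicate 4 and si47 replicate 1 for both genes, si45 replicate 2 and si46 replicate 2 for PTN, and si46 replicates 1 and 4 and si47 replicates 2 and 4 for MDK (adjusted p up to 0.216 for PTN and 0.157 for MDK). The ligands ALKAL1, NTF3 and FGF1 had 0 counts in every library, which allows up to 0.380 to 0.567 CPM. BDNF, the ligand of NTRK2 and NGFR, averaged 6.46 ± 1.43 CPM in siNTC and changed by 0.15 (edgeR, adjusted p = 0.780).

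Of 25 co-receptors and partners 23 were in the table, 16 were tested and 1 was called in the mean contrast, lower (6.25%, against 3.53% of all genes). RTN4R, the Nogo receptor that can signal with NGFR, went from 87.1 ± 6.15 CPM in siNTC to 70.6 ± 4.29 CPM with si45, 68.5 ± 9.37 CPM with si46 and 60.3 ± 12.4 CPM with si47 (SD, n = 4). The mean change was -0.39 (SE 0.0935; edgeR, adjusted p = 0.00632), and 11 of 12 knockdown libraries were below all controls. GFRA2, a RET co-receptor at 546 ± 91.3 CPM in siNTC that was named after its values were seen, changed by -0.30 (edgeR, adjusted p = 0.0846).

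The signal carriers beneath the receptors stood near the background as a list, with 2 higher and 2 lower of 53 tested (58 listed), 3.77% each way against 3.61% and 3.53% of all genes, and a median of -0.01. STAT3, a transcription factor activated by receptor and JAK kinases, rose from 133 ± 24.9 CPM to 174 ± 11.9 CPM with si45, 194 ± 7.51 CPM with si46 and 203 ± 10.7 CPM with si47 (SD, n = 4). Its mean change was 0.51 (edgeR, adjusted p = 6.50e-05), with 11 of 12 knockdown libraries above all controls. IRS1 and IRS2, docking proteins of the insulin and IGF1 receptors, moved in opposite directions: IRS1 fell by 0.70 (adjusted p = 0.0151) and IRS2, named after its values were seen, rose by 0.64 (adjusted p = 0.0304), both by edgeR. All 12 knockdown libraries had less IRS1 than any control, and its call was lost without siNTC replicate 1 or 2 (adjusted p up to 0.0743). AKT2, a kinase of the PI3K cascade, fell by 0.28 (edgeR, adjusted p = 0.0291), a call lost without any siNTC library, si45 replicate 1 or 2, or si47 replicate 1 (adjusted p up to 0.115).

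Part of the feedback regulators and response genes of the MAPK cascade rose. Of 44 listed, 39 were tested, and in the mean contrast 14 were called higher and 0 lower (35.9%, against 3.61% of all genes higher), with a median change of 0.52. The counts were 4 for si45, 14 for si46 and 13 for si47, against 1.01%, 2.14% and 4.91% of all genes. The mean-contrast count was 9 without siNTC replicate 1. For si45 it was 7 without si45 replicate 3, 3 under limma-voom, 9 without the low-count filter and 8 without replicate 3 of all groups, and for si46 it was 7 to 9 without any one siNTC library, si46 replicate 2 or si46 replicate 4, and 9 under limma-voom. Several of these transcripts are also induced by stimuli other than growth factor receptors.

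Among the immediate early genes, IER3 ranged from 24.1 to 30.4 CPM in siNTC and from 43.7 to 90.5 CPM, median 59.2, after knockdown (1.13, SE 0.135; edgeR, adjusted p = 1.50e-06). ARC went from 7.56 to 12.5 CPM to 14.6 to 57.2 CPM (1.48, SE 0.189; edgeR, adjusted p = 5.34e-06), and IER2 rose by 0.48 (adjusted p = 9.46e-05). For these 3 genes all 12 knockdown libraries exceeded all 4 controls, which 1.49% of all genes did. Named after their values were seen, EGR1 rose by 2.82 (edgeR, adjusted p = 1.26e-04) from 8.68 ± 1.28 CPM to 50.8 CPM with si45, 60.4 CPM with si46 and 76.2 CPM with si47, and FOS by 2.16 (adjusted p = 0.00685, and 0.0583 under limma-voom). Also named after their values were seen, the MAPK phosphatases DUSP4 and DUSP6, which switch ERK kinases off, rose by 1.47 and 2.03, the feedback inhibitor SPRY2 by 1.26, and the transcription factors ETV4 and ETV5 by 1.86 and 1.30. The SPRY2 call was lost without siNTC replicate 1 or 4 (edgeR, adjusted p up to 0.119) and the ETV4 call without any siNTC library (up to 0.0842). The ETV5 call was lost without any siNTC library or replicate 4 of si45, si46 or si47 (up to 0.114).

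**Figure D5:**
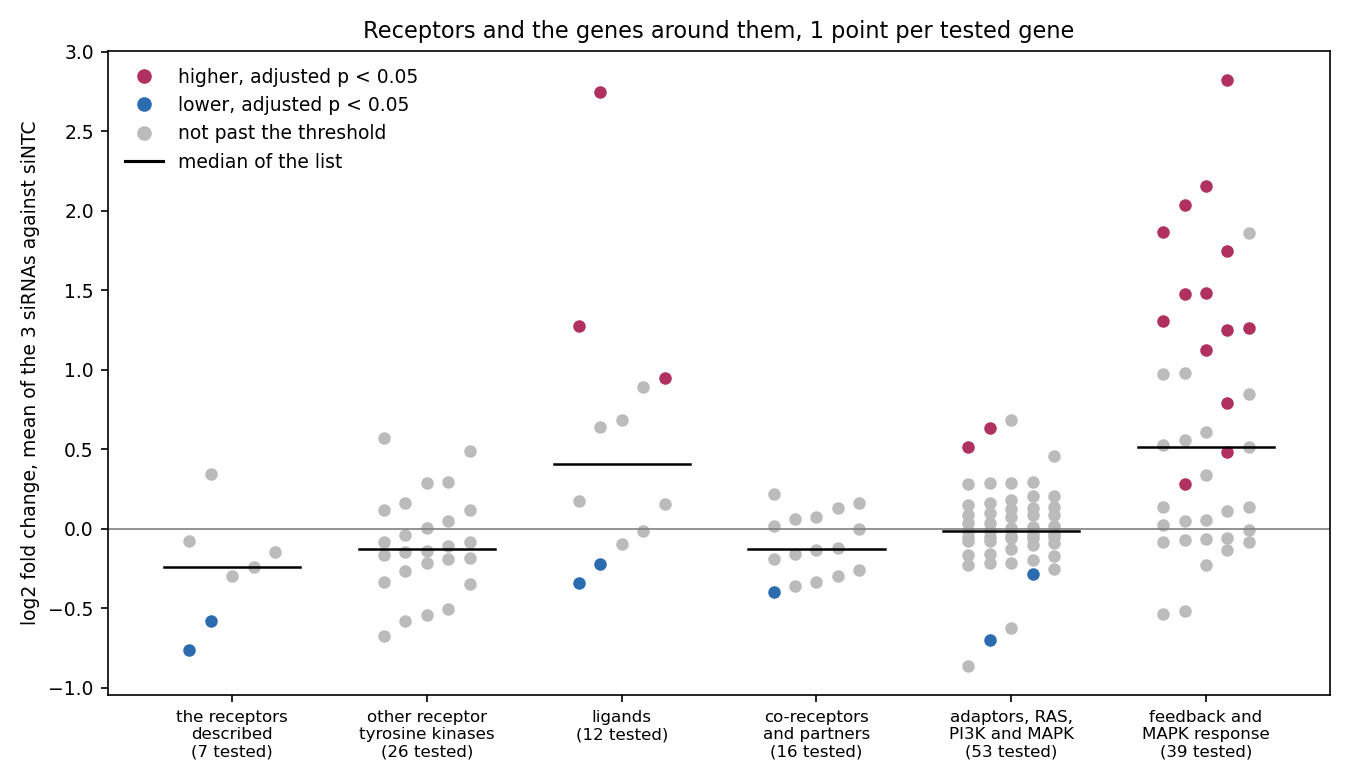
Log2 fold change in the mean of the 3 siRNAs against siNTC, 1 point per tested gene, for the 7 receptors described, the other receptor tyrosine kinases, their ligands, co-receptors, signal carriers, and feedback and MAPK response genes. Red and blue points passed an adjusted p of 0.05; bars give medians, -0.24 for the 7 receptors and 0.52 for the response genes.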

How the data were processed

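The authors deposited whole-number read counts for 58787 Ensembl genes in 16 libraries, not normalized. Per the submitters' processing notes, FastQC 0.11.7, STAR 2.7.2b, edgeR 3.36.0, limma 3.50.3 and GRCh38 were named, with no roles given; the counter, the annotation and the use of strand are not given in the sources used here. Each column was assigned by the siRNA and number in its header, and 58434 identifiers had a symbol. Within groups, 24 library pairs differed by a chi-square of 4.36 to 9.80 per degree of freedom, more than sampling noise.

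Tests used edgeR 4.0.16 (R 4.3.3): filterByExpr (minimum count 10, minimum total 15), TMM scaling and 1 robust quasi-likelihood model of 4 group means, with Benjamini-Hochberg adjustment over 14193 genes and a threshold of 0.05. The fit was tested on simulated data. CPM values use TMM library sizes, and correlations use log2 CPM with a prior count of 2. Loop sequences came from GENCODE coding transcripts, and figures from matplotlib 3.10.9.

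The receptors and lists were chosen with earlier results of these data known, and some items of the lists are not reported here. The text names all 9 receptors, TPX2, up to 3 genes of lowest p past the threshold per pathway list, and the 3 genes most like each receptor called. Alternatives were DESeq2 1.42.0, limma-voom (limma 3.58.1), scaling by RLE or by upper quartiles, other count filters, only the groups compared, a threshold of 0.01, a replicate block, each library left out, and, added after seeing the data, replicate 3 of all groups left out. Deviations from group means correlated positively in every same-numbered pair of libraries. The lowest r was 0.0188 (siNTC with si47, replicate 4) and the highest 0.247 (si45 with si46, replicate 3). For siNTC with si45, r ran from 0.0752 to 0.184. All 4 pairs of si45 and si47 were over 0.1 (lowest r 0.120, highest 0.242), which held throughout no other group pair. This pairing comes from the data and not from the labels.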

Additional observations from a re-analysis of the deposited data

Results flagged for a closer look

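In 4 of the 32 groups of 4 libraries examined (the tested receptors and the total count), 1 library stood apart from the other 3 by more than Dixon's 95% critical value; chance gives about 1 group in 20, or 1.6. ALK in si45 replicate 3 was 44.2 CPM, where the others were at 27.3 to 30.1 CPM. NGFR in the same library was 11.1 CPM against 7.30 to 7.76 CPM. NTRK3 in si46 replicate 3 was 42.8 CPM against 15.6 to 20.1 CPM. RET in si46 replicate 2 was 10.5 CPM against 1.77 to 3.17 CPM.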

How the results depend on the processing

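For the mean of the 3 siRNAs, the count of receptors called (2, NGFR and KIT) was also 2 under DESeq2 and limma-voom, 1 (NGFR) at an adjusted p under 0.01, 3 with ALK added under the replicate block, and 0 to 2 with 1 library left out. It was 0 without siNTC replicate 2 and 1 without siNTC replicate 1. For si45 (0) it was 2 under the replicate block and 2 without replicate 3 of all groups (FGFR1 and NGFR both times), and 0 to 2 with 1 library left out. For si46 (1) it was 2 (NGFR added) under the replicate block, 0 at an adjusted p under 0.01, and 0 to 1 with 1 library left out. For si47 (2) it was 1 (NGFR) without the low-count filter, 1 (NGFR) with only the groups compared, 1 (ALK, with NGFR and KIT lost) without replicate 3 of all groups, 0 at an adjusted p under 0.01, 3 (ALK added) under the replicate block, and 0 to 2 with 1 library left out. Over all 14193 genes the replicate block raised the calls too, from 1014 to 1817 in the mean contrast and from 190 to 577 for si45. For si46 they went from 482 to 1073, and for si47 from 1382 to 2198. Without replicate 3 of all groups, 379 (si45), 1619 (si47) and 1336 (mean contrast) of 14343 genes were called. Pairs of siRNAs gave 0 under every alternative run. The mean contrast had no value with only the groups compared. MAPK response genes called higher (14) numbered 10 under limma-voom, 15 under DESeq2 and 9 to 15 with 1 library left out; for si45 (4) they numbered 11 under the replicate block.

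NGFR kept a negative mean change with 1 library left out (-0.84 to -0.69), as did KIT (-0.70 to -0.50). Signs turned only for changes that passed no test. RET under si45 was -0.12 with the replicate block. Without replicate 3 of all groups, NTRK3 under si46 was -0.12, and ERBB2 was 0.0091 under si45, 0.093 under si47 and 0.29 in the mean. With 1 library left out, NTRK3 ran from -0.35 to 0.15 (si45), -0.38 to 0.31 (si46) and -0.35 to 0.12 (mean), and RET from -0.39 to 0.35 (si45) and -0.38 to 0.74 (si46). ERBB2 ran from -0.72 to 0.012 (si45), -0.12 to 0.54 (si46), -0.53 to 0.088 (si47) and -0.22 to 0.21 (mean), and FGFR1 from -0.082 to 0.018 (si46). The cause was not tested. Depth limits NTRK2 and ERBB3, at 0 to 9 counts, and the spread between replicates limits NTRK3, RET and ERBB2.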
